A study of Canis lupus familiaris and Eptesicus fuscus and Equus caballus with 6 samples.

Results

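SINEC elements are the short interspersed elements (SINEs) of carnivores. Of 955 repeat models measured in dog testis, 12 have a name that begins with SINEC, and the same 12 models make up the class of tRNA-Lys-derived SINEs in that table. No horse or bat model has a SINEC name, and the 3 species together had 2452 models. The values came from the mRNA library of adult dog testis (Canis lupus familiaris). The mRNA libraries of adult horse testis (Equus caballus) and adult testis of the big brown bat (Eptesicus fuscus) were used for comparison only. Per the labels' protocols the tissue was snap frozen and RNA was taken with TRIzol, and the labels name neither strain, treatment nor number of animals. Each species had 1 mRNA library, so that no value below has a replicate check and no test between species was possible. Intervals of shares and ratios cover counting error only, and intervals of TPM are those deposited with the values. None covers differences between animals. The tables hold repeat models and no gene, so marker genes of testis cells could not be read.

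A SINE codes for no protein. The 5′ part of SINEC derives from a tRNA-Lys gene and carries the internal promoter of RNA polymerase III, and the 3′ part ends in a pyrimidine-rich tract and a run of A. The copying of such an RNA into DNA uses the endonuclease and reverse transcriptase that L1, the autonomous long interspersed element, encodes in its second open reading frame (ORF2). SINEC_Cf is the family known to be recently active in dogs, where insertions differ between individuals. The suffix Cf stands for Canis familiaris, and Fc for Felis catus, the cat. SINEC sequences were not used here, so that none is shown.

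Dog reads on repeat models came to 679582, of which rRNA models took 84.4%. Transposable elements (LINE, SINE, LTR, DNA transposon and Helitron models) held 103795 of these reads on 683 models. TPM, the abundance measure of RSEM, corrects for model length and has a fixed total in each table. Reads were rebuilt from TPM and the model length less 24 nt. A read was counted for a family whichever transcript carried it, so that SINEC copies within the transcripts of genes and SINEC transcribed from its own promoter cannot be told apart. Families with alike sequences can share reads, and how reads were split between SINEC models was not tested. The number of genomic copies of a family was not used, so that no value below is a level per copy.

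SINEC held a large share of the reads on dog elements, and most of it fell on the Cf and a subfamilies. The models cover repeats only, so that no share of all testis RNA can be given. The 12 models held 23988 rebuilt reads, which was 23.1% of element reads (exact 95% binomial interval 22.9 to 23.4%). These models held 3.53% of all dog reads on repeat models, rRNA included (3.49 to 3.57%). By TPM, in which short models weigh more, they held 76.3% of all elements and 34.98% of the dog table, rRNA included. The 3 Cf models took 59.9% of SINEC reads (59.2 to 60.5%) and the 2 a models took 30.5% (29.9 to 31.1%). The 2 b models took 5.78% (5.48 to 6.08%) and the 2 c models 3.09% (2.88 to 3.32%). SINEC_old took 0.705% (0.603 to 0.819%), and the 2 cat models took 0.0414% (0.0200 to 0.0767%).

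At least 3 reads fell on 11 of the 12 models, against 29.6% of all dog element models. At least 10 reads fell on 10 of 12, against 19.0% of element models. The median TPM was 9463 over the 12 SINEC models, whereas 59.3% of element models were listed at 0, which puts the median over all of them at 0. SINEC models held 7 of the 10 highest TPM values among elements, but 6 of the 20 highest read counts.

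SINEC_Cf, the recently active family, led with 111292 TPM. Its deposited interval ran from 108149 to 112614 TPM, and its 7907 reads were 33.0% of SINEC reads (32.4 to 33.6%). It had the highest TPM of all 683 elements and the 5th highest number of reads. SINEC_Cf3 had 54379 TPM (52054 to 55817) from 3653 reads. SINEC_Cf2 had 41656 TPM (39634 to 42989) from 2798 reads. In TPM, SINEC_Cf stood 2.05 times above SINEC_Cf3 (1.97 to 2.13) and 2.67 times above SINEC_Cf2 (2.56 to 2.79). The models SINEC_Cf3 and SINEC_Cf2 are both 180 nt long, and SINEC_Cf3 was 1.31 times above SINEC_Cf2 (1.24 to 1.37). These ratios carry intervals from counting alone.

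The a models lay within the range of the Cf models. SINEC_a1 had 60982 TPM (58545 to 62275) from 4070 reads, the second value of all elements. SINEC_a2 had 48752 TPM (46611 to 49998) from 3254 reads. Both models are 179 nt long, and SINEC_a1 was 1.25 times above SINEC_a2 (1.19 to 1.31). The ordering by TPM thus alternated between the subfamilies, with SINEC_Cf first and then SINEC_a1, SINEC_Cf3, SINEC_a2 and SINEC_Cf2. No deposited interval of these 5 overlapped that of its neighbour. Together the 5 models held 90.4% of SINEC reads (90.0 to 90.8%) and 20.9% of element reads (20.6 to 21.1%).

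**Figure D1:**
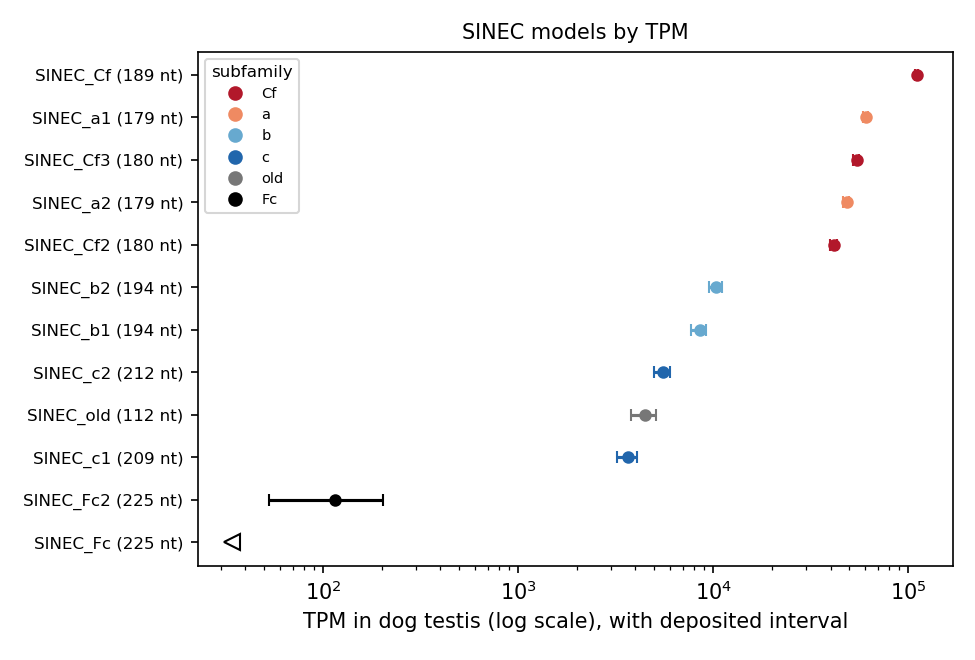
TPM of each SINEC model in the dog testis mRNA library on a log scale, from the highest at the top to the lowest, coloured by subfamily, with the model length beside the name. Bars are the intervals deposited with the values, and the open triangle marks the upper bound for SINEC_Fc, listed at 0. The 5 Cf and a models sit between 41656 and 111292 TPM, above a gap of 4.01 times, and the cat models are lowest.

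A gap of 4.01 times separated SINEC_Cf2 from the next model, SINEC_b2. The b models are 194 nt long. SINEC_b2 had 10384 TPM (9514 to 11114) from 760.1 reads, and SINEC_b1 had 8542 TPM (7721 to 9179) from 625 reads. Their ratio was 1.22 (1.09 to 1.35), and its interval overlapped that of the a models' ratio.

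The c models and SINEC_old were lower again. SINEC_c2, of 212 nt, had 5565 TPM (5000 to 6028) from 451 reads, and SINEC_c1, of 209 nt, had 3664 TPM (3228 to 4070) from 292 reads. SINEC_c2 was 1.52 times above SINEC_c1 (1.31 to 1.77). SINEC_old is the shortest model, with 112 nt, and had 4463 TPM (3792 to 5129) from 169 reads. Its interval overlapped those of both c models, so that the place of SINEC_old beside them is not fixed by the deposited intervals. The intervals of SINEC_c2 and SINEC_c1 lay apart. The other 9 of the 11 neighbouring pairs in the order of TPM had intervals apart. SINEC_old stood above SINEC_c1 by TPM, at 1.22 times (1.001 to 1.48), yet below it in reads, at 0.579 times (0.476 to 0.702). The length correction is largest in SINEC_old, where the effective length was 78.6% of the model, while it was 99.3% in L1_Cf_orf2.

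The cat models were near or at 0. SINEC_Fc2 had 114.7 TPM (52.8 to 203) from 9.93 reads, and SINEC_Fc was listed at 0 with an upper bound of 34.3 TPM. A floor of 3 reads on SINEC_Fc would be 34.7 TPM. SINEC_Cf was 970 times above SINEC_Fc2 (523 to 2009) and 3211 times above that floor. The floor is a cutoff and no upper limit for SINEC_Fc, whose Poisson upper limit was 3.69 reads. All 12 models are between 112 and 225 nt long, with a median of 191.5 nt, and the cat models are the longest. The 5 leading models are 179 to 189 nt long.

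SINEC accounted for nearly all SINE RNA on the dog models. It took 99.3% of SINE reads (99.1 to 99.4%), and the other 10 SINE models together took 0.171% of element reads (0.147 to 0.199%). Among them 7SLRNA, the RNA of the signal recognition particle, which is filed under SINE, had 1287 TPM (1092 to 1480) from 164 reads. No other of the 10 reached 10 reads. MIRc, of the ancient MIR family shared by mammals, had 57.1 TPM from 6.001 reads, and MIR had 19.97 TPM from 2.05 reads. The tRNA models for lysine, the tRNA from which SINEC derives, showed 46.03 TPM from 1.03 reads for tRNA-Lys-AAG and 0 for tRNA-Lys-AAA. All 61 tRNA models together held 4 reads.

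**Figure D2:**
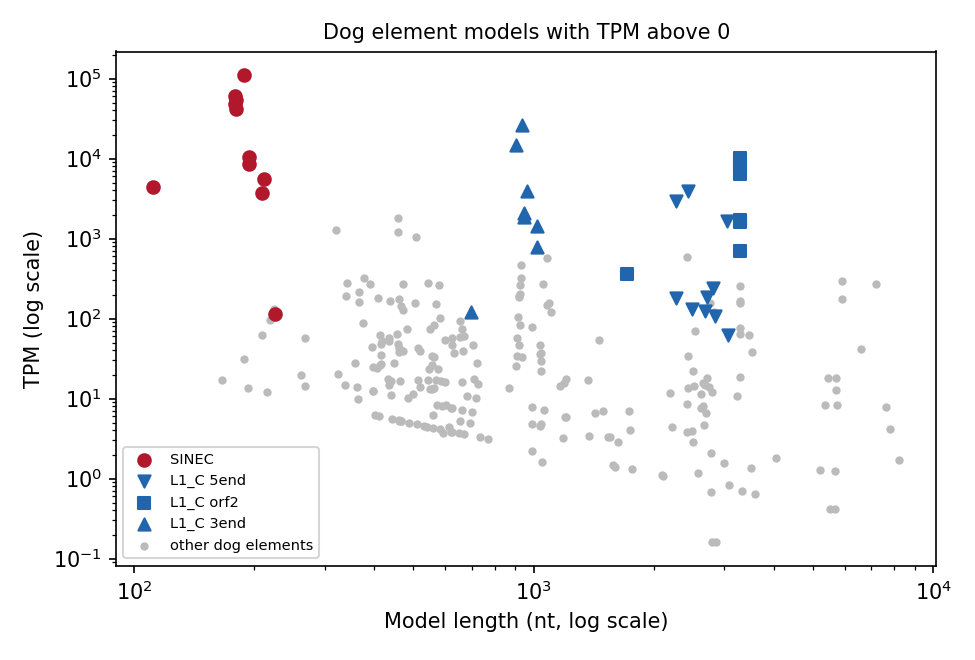
TPM against model length, both on log scales, for every dog element model with a TPM above 0, with SINEC as circles, the L1_C models as blue symbols by part, and all other elements in grey. The Cf and a models of SINEC lie at the top, above the highest L1_C model at 26430 TPM, and SINEC_Fc2 lies at 114.7 TPM among the other elements.

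The L1 models of the dog table whose names begin with L1_C were set beside SINEC, since L1 is the source of the enzymes. Their reads can come from any copy of a family, also from copies within the transcripts of genes. Reads on RNA do not measure the enzymes, so that no ratio below is one of SINEC RNA to enzyme. The L1_C models are 25 models of 11 families, from L1_Cf, L1_Canis and L1_Canid to L1_Carn and L1_Carni. A family can have a 5end model with the promoter and ORF1, which codes for an RNA-binding protein, an orf2 model with the enzymes, and a 3end model. All 3 parts were listed for 5 families, 2 parts for 4 families and a single part for 2 families. All 25 had at least 10 reads. They held 71258 reads, 68.7% of element reads (68.4 to 68.9%) and 96.2% of the reads on all 120 L1 models (96.1 to 96.4%).

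SINEC had fewer reads than L1_C but a higher level per nucleotide. SINEC reads were 0.337 times L1_C reads (0.332 to 0.342). Their level, taken as the mean TPM weighted by effective length, was 27995 TPM in SINEC and 3013 TPM in L1_C, a ratio of 9.29 (9.15 to 9.43). The median TPM was 9463 in SINEC and 1623 in L1_C. The ratio of levels was 11.6 (11.5 to 11.8) without the 2 cat models. As a sum of TPM, SINEC had 349795 and L1_C had 90132. The 2 sums are unlike measures, since each part of an L1_C family adds its own TPM.

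**Figure D3:**
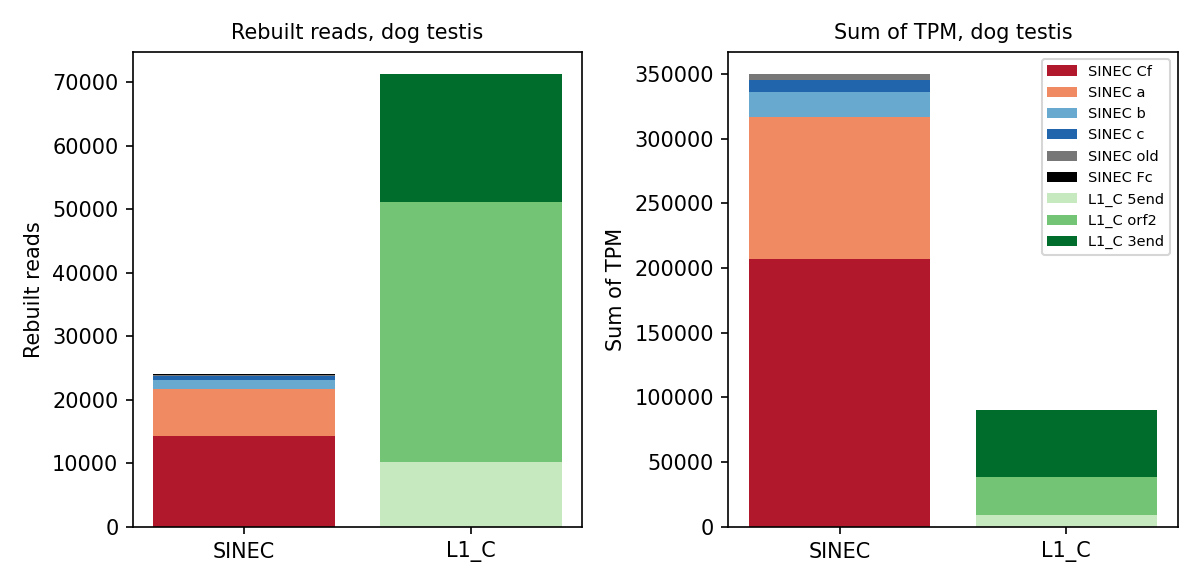
Rebuilt reads (left) and the sum of TPM (right) of the SINEC and L1_C models in dog testis, stacked by SINEC subfamily and by L1_C part. L1_C has more reads (23988 in SINEC and 71258 in L1_C), and SINEC has more TPM (349795 in SINEC and 90132 in L1_C), whose models are shorter. Each part of an L1_C family adds its own TPM to the sum on the right.

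Against the enzyme-coding part alone the difference was smaller. The 7 orf2 models held 40959 reads and a weighted mean of 4469 TPM, and SINEC stood 6.26 times above them per nucleotide (6.16 to 6.36), with 0.586 times their reads (0.576 to 0.595). The 8 3end models held 20080 reads and a weighted mean of 6439 TPM, and SINEC was 4.35 times above them (4.27 to 4.43), with 1.19 times their reads (1.17 to 1.22). The 10 5end models held 10219 reads and 899 TPM, and SINEC was 31.1 times above them (30.4 to 31.9), with 2.35 times their reads (2.29 to 2.40).

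Single models bracket these means. The highest orf2 model was L1_Cf_orf2, with 10079 TPM (9806 to 10174) from 14178 reads. SINEC_Cf was 11.04 times above it (10.7 to 11.4), and 6 SINEC models exceeded it in TPM, although the interval of SINEC_b2 overlapped its own. L1_Canis1_orf2 had 8460 TPM from 11901 reads, and L1_Canis2_orf2 had 6343 TPM from 8923 reads. SINEC_Cf was 13.2 times above L1_Canis1_orf2 (12.8 to 13.5) and 17.5 times above L1_Canis2_orf2 (17.02 to 18.1).

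Of the 3end models L1_Canis1_3end led, with 26430 TPM (25657 to 26710) from 10390 reads, and 5 SINEC models exceeded it. SINEC_Cf was 4.21 times above L1_Canis1_3end (4.09 to 4.34) and 7.60 times above L1_Cf_3end (7.35 to 7.87), which had 14637 TPM. The lower L1_C models reached the range of the cat SINEC. L1_Carni_3end had 120.2 TPM (81.6 to 167), L1_Carn5_5end had 107.8 TPM (89.6 to 127) and L1_Carn7_5end had 62.2 TPM (49.04 to 76.4), against 114.7 TPM in SINEC_Fc2, whose interval overlapped all 3.

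A few families held most L1_C reads. L1_Canis1 took 35.3% of L1_C reads, L1_Cf 33.3% and L1_Canis2 15.5%, while L1_Canid took 5.64% and L1_Carn2 4.83%. The SINEC level was 3.08 times that of L1_Canis1 (3.03 to 3.14), 3.33 times that of L1_Cf (3.27 to 3.39) and 6.85 times that of L1_Canis2 (6.70 to 7.01). It was 20.02 times that of L1_Canid (19.4 to 20.7) and 22.5 times that of L1_Carn2 (21.7 to 23.4).

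TPM differed along the L1 element, so that the ratio to SINEC differed by part. All 7 families with both parts had a higher TPM in the 3end than in the 5end model, at 3.76 times in L1_Cf, 8.96 times in L1_Canis1 and 29.9 times in L1_Canid, with a median of 11.5 over the 7. All 6 families with both had a higher TPM in the orf2 than in the 5end model, from 2.59 times in L1_Cf to 12.3 times in L1_Canid. The 3end model was above the orf2 model in 5 of 6 families. The exception, L1_Carni, had a ratio of 0.329 (0.225 to 0.471), and in L1_Carn7 the interval of the ratio, 1.13 (0.993 to 1.28), included 1. L1_Canid2, at 243 TPM, and L1_Carn1, at 125.6 TPM, have a 5end model only.

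The L1_Carn models stood below the leading SINEC models throughout. Of their 3end models, L1_Carn2 had 2098 TPM, L1_Carn3 had 1837 TPM, L1_Carn5 had 1452 TPM and L1_Carn7 had 784 TPM. Of their orf2 models, L1_Carn2 had 1729 TPM and L1_Carn7 had 695 TPM. The 5end models had 182 TPM in L1_Carn2 and 185 TPM in L1_Carn3. L1_Carni_orf2 had 366 TPM. By their TPM values all of these lay above SINEC_Fc2 and below SINEC_c1. The interval of SINEC_Fc2 (52.8 to 203) still overlapped those of L1_Carn2_5end (154 to 210) and L1_Carn3_5end (160 to 210). Of the remaining 5end models, L1_Carn1 had 125.6 TPM, above SINEC_Fc2, while L1_Carn5 with 107.8 TPM and L1_Carn7 with 62.2 TPM lay below it. L1_Canid reached 3949 TPM in its 3end model, 1623 TPM in its orf2 model and 131.9 TPM in its 5end model. The 5end models of the families with most reads had 3888 TPM in L1_Cf, 2951 TPM in L1_Canis1 and 1654 TPM in L1_Canis2.

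The tRNA-derived SINEs of horse (ERE) and bat (VES) are the most alike groups in the other species. The leading models had similar TPM, at 111292 for SINEC_Cf in dog and 109026 for ERE1 in horse, and VES.SUB12 in bat had 36029 on a table without rRNA. TPM is scaled within each table, so the ratio of SINE to L1 within a library is set side by side instead. Per nucleotide, SINEC was 35.3 times the level of all 120 L1 models in dog (34.8 to 35.9), the 14 ERE models were 19.5 times the 111 L1 models in horse (19.3 to 19.8), and the 32 VES models were 10.5 times the 22 L1 models in bat (10.2 to 10.8).

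With the lineage-named L1 models alone the dog and horse values were closer. SINEC was 9.29 times L1_C in dog (9.15 to 9.43), and ERE was 7.56 times the 16 L1 models named EC in horse (7.47 to 7.66). Without the 2 cat models, which add length but few reads, the dog value was 11.6 (11.5 to 11.8), further from that of horse. By reads the ratio to all L1 was 0.324 in dog (0.319 to 0.329), 0.229 in horse (0.226 to 0.232) and 0.579 in bat (0.563 to 0.595), which is another order than by level. With 1 library per species these differences were not tested, the model sets differ in number and length, and fewer cells of a type and less RNA per cell cannot be told apart.

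SINEC reads fell on few models, although its 12 models are also the fewest of the 3 SINE groups. The 5 leading models took 90.4% of SINEC reads in dog (90.0 to 90.8%), 83.0% of ERE reads in horse (82.5 to 83.4%) and 39.1% of VES reads in bat (38.0 to 40.2%). The first model alone took 33.0% in SINEC, 29.7% in ERE and 9.38% in VES. As a share of element reads, SINEC made up 23.1% in dog, ERE 16.3% in horse and VES 13.8% of all reads on the bat models.

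The deposited intervals of SINEC models were about as wide as 95% intervals from counting error alone. The width of each interval was divided by that of the exact 95% Poisson interval of the rebuilt reads, for models with at least 10 reads. The level of the deposited intervals is not given, so that the ratio compares like with like only if it is also 95%. It is no test of how reads were split between models. The median was 0.999 over the 10 SINEC models, with 0.907 for SINEC_Cf at the low end and 1.08 for SINEC_Cf2 at the high end. SINEC_Cf3, SINEC_b1 and SINEC_b2 had 1.06, 1.08 and 1.07. The median was 1.01 over the 25 L1_C models, with the highest value of 1.13 in L1_Canis1_orf2. It was 0.983 over the ERE models of horse and 1.19 over the VES models of bat, where 16 of 32 exceeded 1.2 and VES.SUB11 reached 1.92. No SINEC, L1_C or ERE model exceeded 1.2. Among the 95 other dog element models with at least 10 reads the median was 0.977, and 3 exceeded 1.2, with 1.496 in Tigger2 as the highest.

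**Figure D4:**
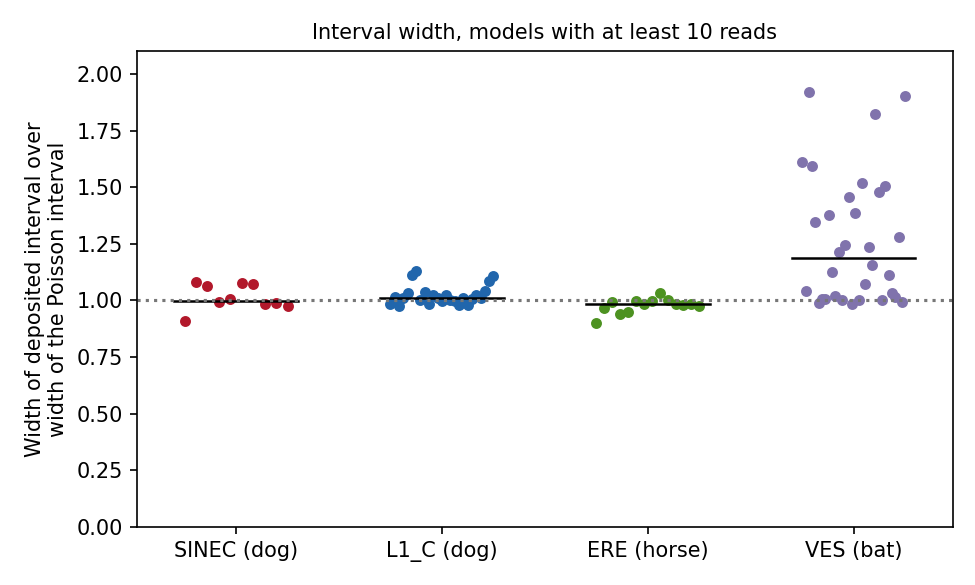
Width of the deposited TPM interval over the width of the exact Poisson interval for each model with at least 10 reads, by group. Black lines are medians, at 0.999 for SINEC, 1.01 for L1_C, 0.983 for ERE and 1.19 for VES, and the dotted line marks equal width. The SINEC models lie between 0.907 and 1.08, while VES models reach 1.92.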

How the data were processed

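The mRNA tables give RSEM estimates for repeat families. Per the file headers, the authors supplied TPM with a lower and an upper bound, and for bat also expected counts. The submitters' processing notes name Bowtie, RSEM and CanFam3.1. Not given in the sources used here were versions, the level of the interval, strand and the source of the repeat models. For dog and horse, reads were rebuilt as TPM times the model length less 24 nt, divided by the value of 1 read (2322 in dog and 2616 in horse), the lowest product that many models shared. In bat the same formula matched the expected counts within 0.0401% over 268 models, with the value of 1 read set from those counts. Dog and horse have no expected counts, so that their values of 1 read have no such check. An offset of 24 nt is what RSEM gives for fragments of 25 nt. On simulated dog reads (955 models) the rebuilt SINEC counts deviated by at most 0.0166%. The simulation made and rebuilt TPM with the same offset of 24 nt. It thus covers the rounding of TPM only and cannot check the offset. Horse had 666118 rebuilt reads and bat 55904 expected counts.

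Shares carry exact (Clopper-Pearson) 95% binomial intervals, and ratios the same interval of their share. No test across models was run, since each group held 1 library. Every SINEC and L1_C model entered the sums and is given a value, and the L1_C models set singly against SINEC_Cf were picked by their TPM. Members and lists were chosen with earlier results of these data known. The small RNA libraries, which list sequences without family names, were not used. Python 3.11.15, numpy 2.4.6, pandas 2.3.3, scipy 1.17.1 and matplotlib 3.10.9 were used.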

Additional observations from a re-analysis of the deposited data

How the results depend on the processing

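Over 8 results and 41 alternatives, 19 moved the value by less than its counting interval (for the interval widths, by less than 1 SD over models), and 4 gave 10 or 11 SINEC models with at least 3 reads, against 11. Among the 23 was an offset of 25 nt for every result it was applied to. The share of SINEC in element reads was 25.4% with no offset, 15.5% without SINEC_Cf, 3.53% of all reads in the table, 22.7% of reads other than rRNA and 76.3% of element TPM. Its share of SINE was 99.6% by TPM and 99.9% of reads without 7SLRNA, and the SINEC_Cf share of SINEC was 31.8% by TPM. SINEC over L1_C reads was 0.382 with no offset, 1.19 against 3end models and 0.586 against orf2 models. SINEC over L1_C per nucleotide was 4.35 against 3end models, 6.26 against orf2 models, 6.79 without SINEC_Cf, and 11.6 with models of at least 10 reads. Alternatives chosen after seeing the data gave 11.6 without the cat models and 35.3 against all L1 models, and 7.56 for horse ERE against L1 models named EC, with 19.5 against all L1. SINEC had fewer reads than all L1_C models or the orf2 models, but more than the 3end models, and 2.35 times the reads of the 5end models. Its level per nucleotide was higher in each of these alternatives. No paired analysis was possible because each group held 1 library. Counts under 10 reads limit only SINEC_Fc2 and SINEC_Fc among the 12 models.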
